A study of Mus musculus and Rattus norvegicus with 2 samples.

Results

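Small RNA reads of caput epididymal sperm that had been filed on the minus strand of a GenBank mRNA record, called antisense reads here, were described in 1 rat and 1 mouse library. They were all rows whose matched entry is a GenBank record of type mRNA and whose strand is minus, with each printed sequence turned to its reverse complement so that it is given as sequenced. They made up 132240 of 1565393 distinct sequences and 478968 of 26413597 reads in the series. Of these, 55506 sequences with 266270 reads came from rat and 76734 sequences with 212698 reads came from mouse. The rat library was made from Sprague Dawley young adults of 450 g and the mouse library from C57BL/6 animals 2 months old. Both came from purified sperm of the caput, the head of the epididymis, and from RNA given as 18 to 45 nt. The listed antisense reads nevertheless ran from 18 nt to 89 nt in rat and to 81 nt in mouse. Those of 46 nt or more were 6.71% of rat and 7.36% of mouse antisense reads. The number of animals behind each library is not given in the labels, and with 1 library per species no difference below has a replicate check. Intervals in parentheses are 95% intervals that cover counting error only.

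Antisense small RNAs can arise in several ways. In the germ line, PIWI-interacting RNAs (piRNAs) are cut from long precursors and from transposon transcripts, and many begin with U. In the ping-pong cycle a sense and an antisense piRNA are made from opposite strands and overlap by 10 nt at their 5′ ends. A minus-strand match can also be the plus strand of another RNA, because some records filed as mRNA hold rRNA, tRNA or repeat sequence in the opposite orientation. Caput sperm small RNAs are known to be rich in fragments of tRNA and rRNA.

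The reads below are the most abundant antisense read of 7 of the 10 leading rat records, each given 5′ to 3′ as sequenced. In the rat reads under AY325217.1, AY539885.1 and EU605813.1, capitals mark the first or last 15 bases that were searched in both libraries. In the FQ216953.1 read and the NM_001100760.1 read, the capital marks the base that differs from the record. In the reads of FQ221393.1 and NM_001107013.1, capitals mark the first 15 bases, where nearly all related reads began.
AY325217.1, 10148 reads in rat: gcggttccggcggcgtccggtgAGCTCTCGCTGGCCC
AY539885.1, 1895 reads in rat: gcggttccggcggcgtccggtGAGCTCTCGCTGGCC
EU605813.1, 5595 reads in rat: ACTGGTGCGGACCAGgggaatccgact
FQ216953.1, 597 reads in rat: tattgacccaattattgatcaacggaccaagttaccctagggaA
FQ221393.1, 2024 reads in rat: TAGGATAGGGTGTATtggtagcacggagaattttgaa
NM_001100760.1, 10599 reads in rat: ctcctccgcgtcgGcggt
NM_001107013.1, 2443 reads in rat: CCTCCAGTCTTGTGAagctt

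The mouse reads below are the most abundant ones of 6 of the 10 leading mouse records. Capitals mark the last 15 bases of the reads under AY053456.1, AY053455.1 and BC030479.1, where nearly all related reads ended. They mark the first 15 bases of the reads under BC030048.1 and NM_001162506.1, and in the AJ428208.1 read the 2 bases that differ from the record.
AY053456.1, 4672 reads in mouse: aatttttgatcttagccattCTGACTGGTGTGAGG
AY053455.1, 766 reads in mouse: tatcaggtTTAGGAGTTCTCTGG
BC030479.1, 681 reads in mouse: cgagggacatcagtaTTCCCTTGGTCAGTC
BC030048.1, 1663 reads in mouse: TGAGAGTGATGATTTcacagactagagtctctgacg
AJ428208.1, 409 reads in mouse: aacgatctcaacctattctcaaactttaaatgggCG
NM_001162506.1, 1931 reads in mouse: CCTCCAGTCTTGTGAagct

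The antisense share of mRNA-record reads did not differ between the species beyond counting error. In rat, 266270 antisense reads stood beside 2359214 sense reads, and in mouse 212698 beside 1895073. The antisense share was 10.1% in rat (10.1 to 10.2) and 10.1% in mouse (10.1 to 10.1), a log2 ratio of rat over mouse of 0.0072 (-0.0010 to 0.0154). Per 1000000 listed reads, antisense reads numbered 18172 in rat and 18085 in mouse, from 14652889 rat and 11760708 mouse listed reads. Their log2 ratio was 0.0069 (-0.0014 to 0.0151). Equal values were thus found for the full counts, and other ways of counting moved them. The ratio of the antisense shares was 0.38 with each distinct sequence counted once and 0.52 both for exact reads and without reads that held rRNA or tRNA sequence. The ratio per 1000000 reads was -0.95 without reads that held rRNA or tRNA sequence and 1.04 for sequences of at least 10 reads. Antisense sequences with a single read made up 81.3% of the rat sequences and 55.1% of the mouse sequences.

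Antisense reads matched their records far less well than sense reads did. Up to 2 mismatches were listed per sequence. In rat, 50.5% of antisense reads (50.3 to 50.7) matched exactly, against 95.04% of sense reads. In mouse, 34.5% of antisense reads (34.3 to 34.7) matched exactly, against 94.0% of sense reads. Reads with 2 mismatches were 24.9% of antisense and 1.86% of sense reads in rat, a log2 ratio of antisense over sense of 3.74 (3.72 to 3.76). In mouse they were 42.1% of antisense and 3.68% of sense reads, a log2 ratio of 3.51 (3.50 to 3.53). The poor match was steepest in the shortest reads. Of antisense reads of 18 to 20 nt, 63.0% in rat and 83.4% in mouse carried 2 mismatches, against 19.95% of rat and 28.8% of mouse sense reads of that length. Antisense reads of 18 to 20 nt with 2 mismatches alone made up 16.0% of rat and 24.7% of mouse antisense reads.

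**Figure D1:**
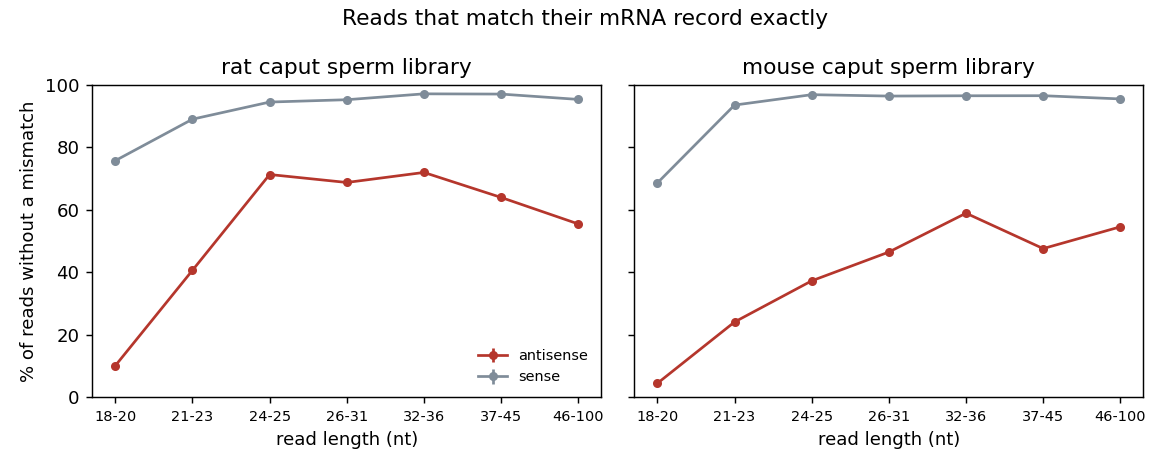
Share of reads without a mismatch to their mRNA record (y axis, %) by read length (x axis, nt) for antisense and sense reads, rat at the left and mouse at the right, with 95% counting intervals that are mostly smaller than the points. Antisense reads lie below sense reads in every length range, and lowest at 18 to 20 nt, with 10.2% in rat and 4.52% in mouse.

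In rat, mismatches of the longer antisense reads sat at the 3′ end. Of mismatches in rat antisense reads over 20 nt, 60.6% fell in the last 3 bases, where an even spread would place 9.89%. Among rat sense reads over 20 nt the share was 24.9%. In mouse it was 19.7% of antisense mismatches and 14.7% of sense mismatches. Rat antisense reads with such an end also began like plus-strand reads of other entries. Of the 46941 rat reads over 20 nt with a mismatch in the last 3 bases, 74.9% (74.5 to 75.3) had all but those 3 bases in common with the start of a plus-strand read of the same library. In 54.7% the most abundant such plus-strand read was filed as mRNA sense, and in 18.0% as rRNA. In mouse, 19.5% (18.9 to 20.04) of 20189 such reads began like a plus-strand read. Without any mismatch, 3.21% of rat and 4.22% of mouse antisense reads over 20 nt did so.

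The length profile of antisense reads had a peak at the shortest length and a second, broader peak above 30 nt. Reads of 18 nt were the most frequent in both libraries, at 14.1% of rat and 13.3% of mouse antisense reads. The second peak stood at 37 nt in rat, with 6.21%, and at 35 nt in mouse, with 4.71%. Sense reads instead peaked at 41 nt in rat, with 22.9%, and at 23 nt in mouse, with 6.23%. Reads of 18 to 20 nt made up 25.5% of antisense and 5.35% of sense reads in rat, and 29.6% of antisense and 7.19% of sense reads in mouse.

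Reads of the length usual for piRNAs, 26 to 31 nt, did not hold the highest point of either antisense profile, although smaller local maxima lay inside it, at 27 nt (3.86%) and 30 nt (3.62%) in rat and at 26 nt (2.70%) in mouse. They were 19.0% of rat (18.8 to 19.1) and 14.6% of mouse (14.5 to 14.8) antisense reads, a log2 ratio of rat over mouse of 0.38 (0.36 to 0.40). The same lengths held 13.4% of rat sense reads and 20.4% of mouse sense reads. Relative to sense reads, antisense reads of this length were therefore more frequent in rat and less frequent in mouse. Over distinct sequences this length was less frequent among antisense in both libraries. It held 15.3% of antisense and 22.4% of sense sequences in rat, and 13.0% and 17.5% in mouse. Without reads that held rRNA or tRNA sequence the ratio of rat over mouse turned to -0.19, and to -0.53 when mitochondrial reads were also left out. Reads of 21 to 23 nt, the length of small interfering RNAs, were 7.92% of rat and 11.1% of mouse antisense reads. Their log2 ratio was -0.49 (-0.52 to -0.47). Sense reads held 5.22% of this length in rat and 11.1% in mouse, so in mouse the strands did not differ by reads. Over distinct sequences it held 9.88% of antisense and 10.2% of sense in rat, and 11.3% and 6.94% in mouse.

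**Figure D2:**
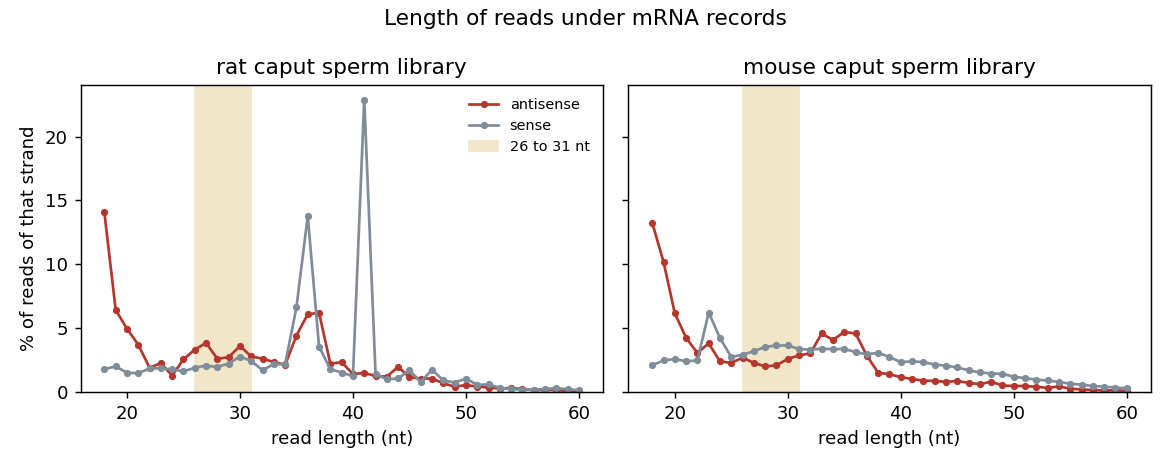
Length of antisense and sense reads under mRNA records (x axis, nt, shown to 60 nt; y axis, % of reads of that strand), rat at the left and mouse at the right, with the band of 26 to 31 nt shaded. Antisense reads peak at 18 nt in both libraries and again at 37 nt in rat and 35 nt in mouse, and the shaded band holds smaller maxima, at 27 nt (3.86%) and 30 nt (3.62%) in rat and at 26 nt (2.70%) in mouse.

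The first base differed between the species. U, the base at which many piRNAs begin, opened 21.5% of rat (21.4 to 21.7) and 33.2% of mouse (33.0 to 33.4) antisense reads, a log2 ratio of -0.62 (-0.64 to -0.61). C was the leading first base in rat, at 34.3%, followed by A at 24.8% and G at 19.4%. In mouse, U was followed by A at 29.0%, C at 24.1% and G at 13.7%. Over distinct sequences this order was not kept. In rat A then led at 29.2%, with C at 27.0%, U at 24.6% and G at 19.2%. In mouse U, C and A were nearly level, at 28.5%, 28.4% and 28.4%, with G at 14.7%. U opened 14.6% of rat and 23.2% of mouse sense reads, so over all reads the antisense share was the higher one in both libraries. In mouse this held at 26 to 31 nt, with 34.1% of antisense and 23.6% of sense reads, and for exact reads, with 38.1% and 22.8%. In rat it did not hold by reads. There U opened 19.6% of antisense and 21.2% of sense reads of 26 to 31 nt. Among rat reads without a mismatch it opened 12.2% of antisense and 14.1% of sense reads. Over distinct sequences of 26 to 31 nt, the antisense share of U was the higher one in both libraries. It was 26.6% against 22.05% for sense in rat, and 28.8% against 24.7% in mouse. Over distinct sequences without a mismatch it was 18.87% against 20.96% in rat, and 25.6% against 24.3% in mouse. For exact reads the ratio of rat over mouse was -1.64. Without reads that held rRNA or tRNA sequence the ratio turned to 0.18. When mitochondrial reads were also left out it was -0.41, with U at 25.7% in rat and 34.2% in mouse. Sense reads without these classes had U at 20.8% in rat and 24.8% in mouse, below the antisense reads in both. An A at the tenth base, the mark of secondary piRNAs, was found in 13.4% of rat and 20.4% of mouse antisense reads, and in 54.9% of rat and 20.8% of mouse sense reads. Without rRNA, mitochondrial or tRNA sequence it was found in 15.02% of rat and 20.5% of mouse antisense reads, and in 22.9% of rat and 22.6% of mouse sense reads.

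Sense and antisense reads of the same record were compared for overlap of their 5′ ends. At 10 nt, 0.145% of rat (0.131 to 0.160) and 0.781% of mouse (0.744 to 0.820) antisense reads had such a partner, a log2 ratio of -2.43 (-2.60 to -2.27), or -1.12 over distinct sequences. The neighbouring overlaps were of like size in mouse, 0.678% at 9 nt and 0.780% at 11 nt, and the highest from 8 to 20 nt was 1.07% at 20 nt. In rat, 2.27% had an overlap of 9 nt and 0.0680% one of 11 nt. The overlap of 10 nt thus did not stand out in either library among reads filed under the same record. Partners filed under another entry were not counted. Of the 10 leading records, 3 in rat and 6 in mouse had no sense read, so their antisense reads could have no partner here. Overlaps below 8 nt are too short to be specific: 1 nt alone matched 46.2% of rat and 66.7% of mouse antisense reads.

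**Figure D3:**
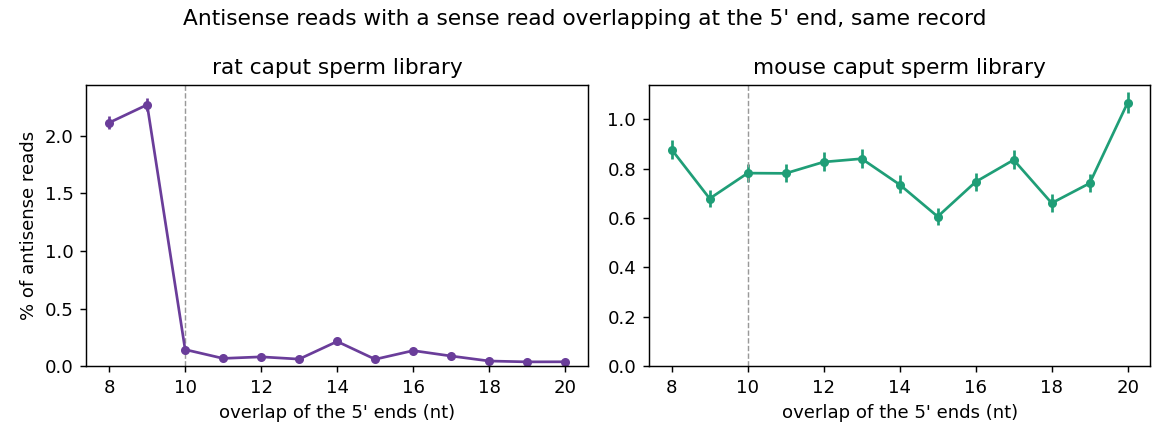
Share of antisense reads with a sense read of the same record whose 5′ end overlaps theirs by a given length (x axis, 8 to 20 nt; y axis, %, with a separate scale per panel), rat at the left and mouse at the right, with 95% counting intervals and a dashed line at 10 nt. The value at 10 nt is 0.145% in rat and 0.781% in mouse, which in rat lies below the 2.27% at 9 nt and in mouse lies within counting error of the 0.780% at 11 nt.

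Each antisense read was sorted by what its own sequence held, taking the first class that applied in a fixed order. The reads of rRNA, tRNA and other small RNA entries, the mouse mitochondrial transcripts, and the GENCODE vM21 mouse transcripts served as references. RNA hidden under the minus strand of mRNA records was the larger part in rat. rRNA, mitochondrial RNA, tRNA, repeats and other small structured RNA together took 70.2% of rat (70.0 to 70.4) and 45.0% of mouse (44.8 to 45.3) antisense reads. The repeat class counts genes matched on either strand, so it does not show that a read is the plus strand of another RNA. rRNA, mitochondrial RNA and tRNA alone took 68.3% of rat and 7.38% of mouse antisense reads. No rat genome was used here, so the reads of rat that matched a mouse transcript are a lower count than a rat annotation would give.

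rRNA, the RNA core of the ribosome, was the leading hidden class in rat. It took 138177 antisense reads in rat, or 51.9% (51.7 to 52.1), and 14561 in mouse, or 6.85% (6.74 to 6.95). The log2 ratio of rat over mouse was 2.92 (2.90 to 2.95), with 1.45 over distinct sequences and 3.94 over exact ones. All of it lay in the orientation of rRNA itself: 0 antisense reads in either library held rRNA sequence in reverse, and taking a count of 0 as up to 3 reads this allows a share of up to 0.00113% in rat and 0.00141% in mouse. Sense reads held rRNA as well, at 67.2% in rat and 15.6% in mouse. The log2 ratios of antisense over sense were -0.37 in rat and -1.19 in mouse, so by reads rRNA was less frequent among antisense in both libraries. Over distinct sequences it was more frequent there. It then took 23.5% of antisense and 9.80% of sense sequences in rat, and 8.64% and 1.46% in mouse. Of the hidden rRNA reads, 84.5% matched their record exactly in rat and 28.4% in mouse.

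Mitochondrial RNA was the second hidden class in rat and nearly absent from mouse antisense reads. It took 43074 reads in rat, or 16.2% (16.0 to 16.3), and 227 in mouse, or 0.107% (0.0933 to 0.122), a log2 ratio of 7.24 (7.06 to 7.44). By similarity to mouse, 23115 of the rat reads resembled mt-Rnr2, the large mitochondrial rRNA, and 17876 resembled mt-Tq, the mitochondrial glutamine tRNA. A further 1008 resembled mt-Tm, the methionine tRNA, and 882 mt-Rnr1, the small mitochondrial rRNA. They were read in the orientation of these RNAs. The mt-Tq gene lies on the strand opposite to most mitochondrial genes. Sequence opposite to mouse mitochondrial transcripts was found in 35 rat and 501 mouse antisense reads. In mouse the few reads were led by mt-Co1, with 77 reads.

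tRNA sequence took under 1% of antisense reads in both libraries. By 14-nt words, 516 rat reads, or 0.194% (0.177 to 0.211), and 1771 mouse reads, or 0.833% (0.794 to 0.872), held tRNA sequence, a log2 ratio of -2.10 (-2.25 to -1.96). Over distinct sequences the ratio was -3.12, and over sequences of at least 10 reads -0.77. Over exact ones it was -6.85 with a wide interval (-12.2 to -4.32). There tRNA sequence took 0.000744% of rat and 0.0859% of mouse antisense reads, so the rat value lay near the floor and the size of that ratio is uncertain. Among sense reads, 3.90% in rat and 0.552% in mouse held tRNA sequence, so it was less frequent among antisense than among sense reads in rat, a log2 ratio of -4.33, and more frequent in mouse, a log2 ratio of 0.59. In mouse 914 of these antisense reads stayed in the tRNA class after rRNA and mitochondrial RNA had been set apart, and the ratio of that class was -1.15. The leading rat read of the class, with 206 reads, is shown for its 3′ end, where capitals mark the CCA that is added to mature tRNAs.
NM_001108542.1, 206 reads in rat: tcgatccccggcatctccaCCA
A shorter form of 18 nt with the same end had 53 antisense reads in rat and 176 in mouse. It was filed under unrelated records, NM_001107169.1 in rat and NM_133862.1 in mouse.

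Repeats were the leading hidden class in mouse. Reads with words in transcripts of at least 10 genes took 75765 mouse antisense reads, or 35.6% (35.4 to 35.8), and 5013 rat antisense reads, or 1.88% (1.83 to 1.94), a log2 ratio of -4.24 (-4.28 to -4.20). Among sense reads the class took 0.652% in rat and 3.75% in mouse, so it was more frequent among antisense than among sense reads in both libraries. Mouse repeat reads were most often 35 nt long, 38.4% began with U and 20.4% had 26 to 31 nt. The ratio between species also carries the lack of rat transcripts in the search.

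Other small structured RNA was mostly 1 RNA. It took 4350 mouse reads, or 2.05% (1.99 to 2.11), and 132 rat reads, or 0.0496% (0.0415 to 0.0588). SNORD52, a C/D box small nucleolar RNA of the kind that guides methylation of rRNA, accounted for 4231 of the mouse reads, or 97.3%.

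**Figure D4:**
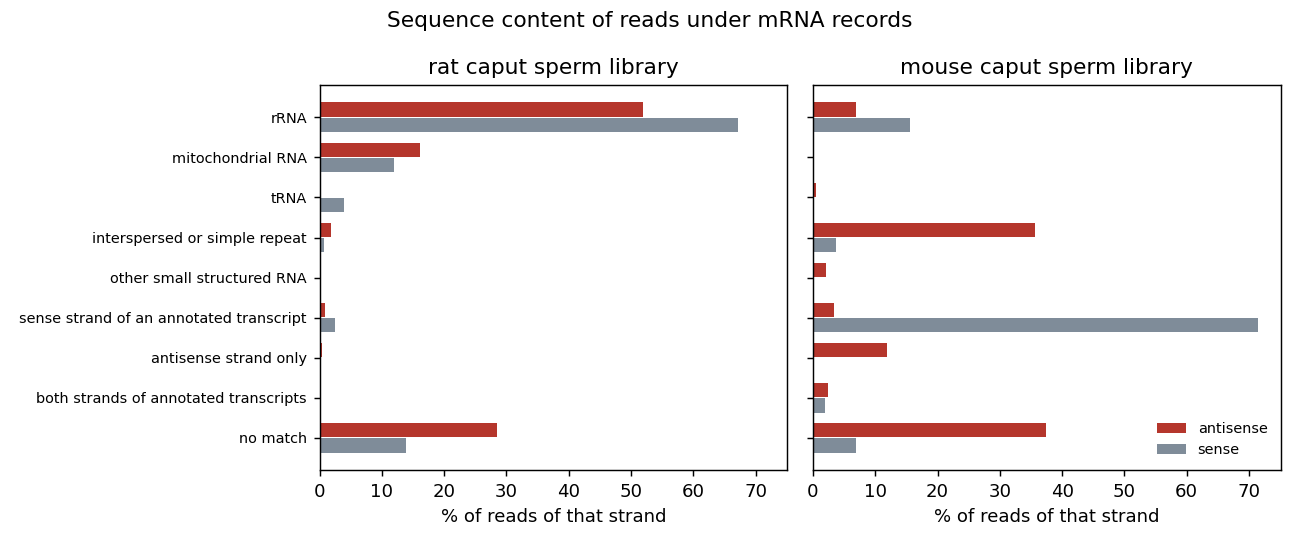
Share of reads under mRNA records that fell in each sequence class (x axis, % of reads of that strand) for antisense and sense reads, rat at the left and mouse at the right. Antisense bars are longest for rRNA in rat, at 51.9%, and for reads without a match and repeats in mouse, at 37.4% and 35.6%, whereas mouse sense reads lie mostly on the sense strand of annotated transcripts, at 71.5%.

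The 10 records with the most antisense reads held a larger share of them in rat than in mouse. They held 191765 of the rat reads, or 72.0%, and 74562 of the mouse reads, or 35.1%, a log2 ratio of 1.04 (1.03 to 1.05). Over sequences of at least 10 reads their share was 82.9% for rat and 73.5% for mouse, with a log2 ratio of 0.17. The leading record alone held 19.9% in rat and 15.7% in mouse. The remaining reads were spread widely: antisense reads fell on 14953 records in rat, 8479 of them with a single read, and on 27229 in mouse, 9097 of them with a single read. Of the 10 leading records, 9 in rat and 10 in mouse had antisense reads at least 2-fold over sense reads. Among all mRNA records with at least 10 reads this held for 4.89% in rat and 4.18% in mouse. Since the leading records were taken for their antisense reads, nothing is read from that difference. Of the leading records 3 in rat and 6 in mouse had no sense read at all, a state found in 1.18% of rat and 0.98% of mouse records with at least 10 reads.

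**Figure D5:**
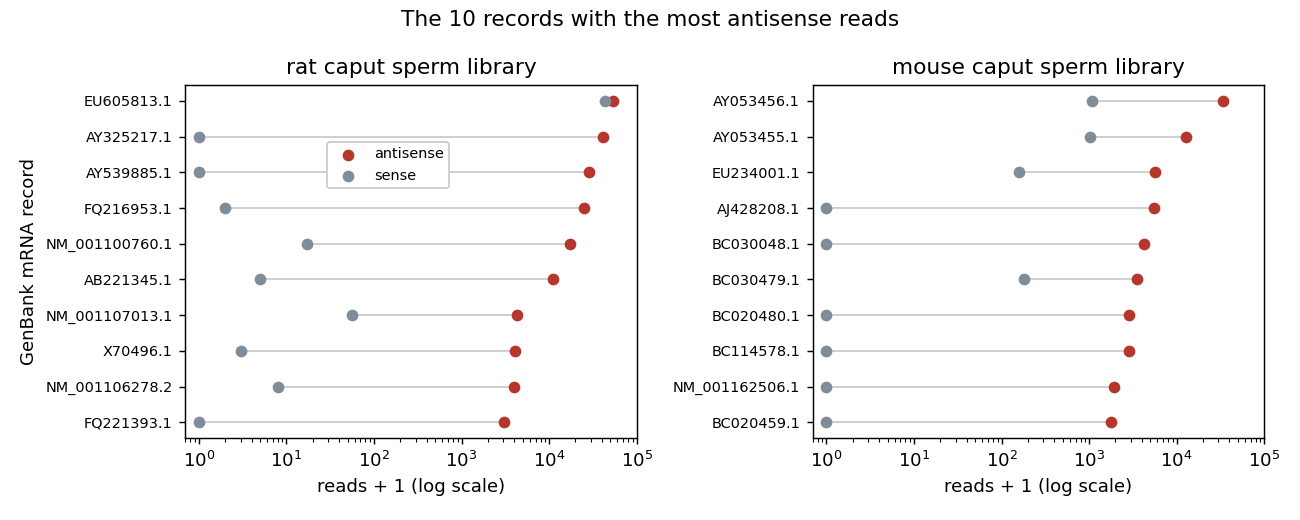
Antisense and sense reads of the 10 records with the most antisense reads in each library (x axis, reads plus 1 on a log scale), rat at the left and mouse at the right. Antisense points lie to the right in every record, closest to the sense point in the rat record EU605813.1 with 53014 antisense and 43579 sense reads.

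By their main class, 5 of the 10 leading rat records held rRNA, 3 mitochondrial RNA and 2 no matched class. EU605813.1 had 53014 antisense and 43579 sense reads, AY325217.1 had 41104 antisense and 0 sense reads, and AY539885.1 had 28863 antisense and 0 sense reads. rRNA took 97.7%, 94.9% and 93.7% of their antisense reads. All 3 therefore hold rRNA, and EU605813.1 had reads filed on both of its strands. The end of its leading read, as sequenced, occurred in 29182 rat reads, of which 18071 were filed as mRNA antisense and 11111 as mRNA sense. Over all mRNA records, 0 rat antisense and 3 rat sense reads held rRNA sequence in reverse. The rRNA itself was thus read almost only in its own orientation. AB221345.1, with 11068 antisense reads, was 91.6% rRNA, and NM_001106278.2, with 3970, was 99.9% rRNA but consisted of short, G- and C-rich reads of which 96.8% carried 2 mismatches.

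The same rRNA sequence was often split between entries. The last 15 bases of the leading AY325217.1 read occurred in 135010 rat reads, of which 28279 were filed as mRNA antisense and 106730 under rRNA. In mouse they occurred in 8983 reads, of which 3 were mRNA antisense and 8845 were under rRNA. The first 15 bases of the EU605813.1 read occurred in 28484 rat reads, all of them mRNA antisense, and in 14557 mouse reads, of which 65 were mRNA antisense and 14397 under rRNA. A sequence that counted as antisense mRNA in rat thus counted as rRNA in mouse.

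The mitochondrial records of rat differed in how well they were matched. FQ216953.1 had 24790 antisense reads and 1 sense read, 81.2% of the antisense reads were mitochondrial, and none matched exactly. The first 15 bases of its leading read occurred in 40194 rat reads, of which 35864 were filed as mRNA sense and 4316 as mRNA antisense. X70496.1, with 4030 antisense reads, was 57.4% mitochondrial and matched exactly in 0.174% of reads. FQ221393.1, with 3067 antisense and 0 sense reads, matched exactly in 66.0% of reads and was 1 of several records that held mt-Tq-like reads.

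Most mt-Tq-like reads of rat shared their first base. The first 15 bases of the leading FQ221393.1 read occurred in 16799 rat reads, 99.9% of which began there and 16782 of which were mRNA antisense, spread over 24 records. They ranged from 18 to 66 nt and took 6.30% of rat antisense reads (6.21 to 6.40). None occurred in mouse, although the last 15 bases of the read occurred in 243 mouse reads, all filed under tRNA. Their start was fixed and their end varied.

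Both unmatched rat records were made of short reads. NM_001100760.1 had 17521 antisense and 16 sense reads in 39 sequences, of which 99.98% of reads were of 18 to 20 nt and none matched exactly. NM_001107013.1 had 4338 antisense and 55 sense reads, also with no exact match. Its leading read had close relatives in mouse. The first 15 bases occurred in 4327 rat and 2415 mouse reads, of which 4322 in rat and 2412 in mouse were mRNA antisense. The mouse reads lay under 8 records, led by NM_001162506.1, the record of Troap, with 1932 antisense and 0 sense reads. The 2 libraries thus shared a short read that was filed with mismatches under different records.

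In mouse, 4 of the leading records held repeats, 4 rRNA, 1 a small nucleolar RNA and 1 no matched class. AY053456.1 had 33407 antisense and 1068 sense reads, AY053455.1 had 12795 antisense and 1025 sense reads, and EU234001.1 had 5624 antisense and 157 sense reads. Repeats took 93.6%, 83.3% and 77.7% of their antisense reads. The sequences printed above for AY053456.1 and AY053455.1 are, from general knowledge, the strand opposite to the coding strand of LINE-1, the leading family of active retrotransposons in mouse. No repeat annotation was used here. BC030479.1, with 3540 antisense and 180 sense reads, was 94.4% repeat.

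At 3 places, mouse repeat reads had a fixed 3′ end and varied at the 5′ end. The last 15 bases of the AY053456.1 read occurred in 44518 mouse reads, of which 99.9% ended exactly there. Of these, 30740 were mRNA antisense, 65 mRNA sense and 13713 under records of unknown type. The antisense ones took 14.5% of mouse antisense reads (14.3 to 14.6), ranged from 18 to 72 nt with a mode of 35 nt, and 48.5% began with U. Only 11.5% had 26 to 31 nt, below the 14.6% of all mouse antisense reads. The same 15 bases occurred in 797 rat reads, of which 794 ended there.

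The other 2 ends were fixed as well. The end of the AY053455.1 read occurred in 15314 mouse reads, 99.98% of them ending there. Of these, 6837 were mRNA antisense and 8476 under records of unknown type. It occurred in 32 rat reads, and all 32 ended there. The end of the BC030479.1 read occurred in 8030 mouse reads, 99.9% of them ending there. Of these, 3401 were mRNA antisense and 2987 mRNA sense. It occurred in 36 rat reads, and all 36 ended there. The fixed ends were thus particular neither to mouse nor to reads filed as antisense, and what sets them was not tested. Reads with these ends had 26 to 31 nt in 40.2% and 34.6% of cases. Their leading lengths were 23 nt and 30 nt, so the 3 ends differed in length although each was fixed.

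The rRNA and snoRNA records of mouse had no sense reads. AJ428208.1 had 5536 antisense reads, BC020480.1 had 2883, BC114578.1 had 2820 and BC020459.1 had 1758, and rRNA took 67.7%, 79.9%, 88.7% and 79.9% of them. BC030048.1 had 4267 antisense reads, of which 99.2% were small structured RNA and 96.3% exact. Their leading start occurred in 3877 mouse reads, 99.7% of which began there, and all of these were mRNA antisense. The last 15 bases of the printed read, however, occurred in 14950 mouse reads, of which 4155 were mRNA antisense and 10794 were under small nucleolar RNA entries. SNORD52 reads were thus divided between a small nucleolar RNA entry and the minus strand of an mRNA record.

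Reads outside the hidden classes were sorted by the mouse annotation. In mouse, 25122 antisense reads, or 11.8% (11.7 to 11.9), lay on the antisense strand of annotated transcripts and on no sense strand, and 85.4% of them matched exactly. This share was 29.3% over exact sequences and 5.73% over sequences of at least 10 reads. It includes 176 reads of the 18-nt form with a tRNA end described above. A further 7166, or 3.37% (3.29 to 3.45), lay on the sense strand of an annotated transcript, of which 68.2% had 2 mismatches to the record under which they were filed. Both strands held 4997, or 2.35%. No match was found for 79596, or 37.4% (37.2 to 37.6), and 79.1% of these had 2 mismatches and 66.3% had 18 to 20 nt.

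Exact antisense reads of annotated mouse transcripts were therefore a minor part of the set. Reads on the antisense strand alone and without a mismatch numbered 21460, or 10.1% of mouse antisense reads (9.96 to 10.2). Of the reads on the antisense strand alone, 22.6% had 26 to 31 nt and 28.0% began with U. Sense reads on annotated transcripts had 21.9% and 24.8%. The antisense reads were thus close to the sense reads in the share of 26 to 31 nt and slightly richer in a first U. Their lengths otherwise differed. Reads of 18 to 20 nt were 12.6% of the antisense and 5.57% of the sense reads, and the most frequent lengths were 18 nt and 30 nt. An example of a read on the sense strand of another gene is the 18-nt read below, with 621 reads, filed with 2 mismatches on the minus strand of NM_008766.3 but exact on Snora62, an H/ACA small nucleolar RNA. Capitals mark the 2 bases that differ from the record.
NM_008766.3, 621 reads in mouse: ctgcacaTTgttagagct

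Antisense reads that lay on the antisense strand of a single annotated gene, 23411 in all, fell on 4202 genes with a median of 2 reads. At least 10 such reads were found for 396 genes, of which 304 are protein-coding. Of these 396, 193 had more antisense than sense reads and 81 had no sense read. An antisense count of at least 2-fold over sense was found for 163 of the 396, and for 1.84% of the 9780 annotated genes with at least 10 reads. The 396 genes were taken for their antisense reads, so their share is a description. The 10 leading genes held 3724 reads.

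Defb36, a beta-defensin gene on chromosome 2 (152604327 to 152612729, plus strand, GRCm38), led with 1108 antisense reads and 1 sense read. Beta-defensins are antimicrobial peptides, and several are made by the epididymal epithelium. All 1108 reads matched exactly, and 99.6% shared the 3′ end of the leading read, which lies in the coding part of an exon at 152612535 to 152612561. Metrn, which codes for the secreted protein meteorin, lies on chromosome 17 (25793221 to 25797136, minus strand) and had 335 antisense reads and 1 sense read. Of these 99.4% shared the end of the leading read at 25794650 to 25794685, in an exon part annotated as untranslated. Both genes thus had reads at 1 place with a fixed 3′ end, and vM21 annotates no gene on the opposite strand there. The leading Defb36 read is shown with the shared last 15 bases in capitals.
Defb36, 260 reads in mouse: tgcagtagacgtAGACGCTCTCCTTCC

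Other leading genes had reads spread along the transcript. Ttn, which codes for the muscle protein titin on chromosome 2 (76703980 to 76982547, minus strand), had 285 antisense and 91 sense reads in 157 antisense sequences. Bsn, which codes for the presynaptic scaffold protein bassoon on chromosome 9 (108096022 to 108190384, minus strand), had 233 antisense and 21 sense reads in 115 sequences. Their leading reads held 7 and 10 reads, so no single place dominated. A gene on the opposite strand is annotated within the span of both sets of reads, Gm13938 for Ttn, and 4930447F24Rik and Gm37201 for Bsn. Klhl34, a kelch-like gene on chromosome X (157818435 to 157820369, plus strand), had 226 antisense and 0 sense reads in 119 sequences.

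Gm42427, an unclassified transcript on chromosome 5 (44137980 to 44143271, plus strand), had 469 antisense and 792 sense reads. The mitochondrial gene mt-Nd4, for a subunit of respiratory complex I, had 258 antisense and 30 sense reads, and 93.4% of the antisense reads shared the end of the leading read at 11496 to 11520 of the mitochondrial genome. The last 3 leading genes, the pseudogenes Gm47356 and Gm47632 and the vomeronasal receptor gene Vmn2r14, had 303, 276 and 231 antisense reads and no sense reads. Their leading reads were filed, each with 1 mismatch, under AY053456.1, AY053455.1 and EU234001.1, and they matched these genes exactly. In each of the 3 genes 100% of the antisense reads shared the end of the leading read, and none matched its record exactly. Repeats were the main class of those 3 records, and whether these reads come from repeat copies elsewhere was not tested.

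The antisense reads of the 2 species overlapped little as sequences. Of rat antisense sequences, 2539, or 4.57%, were also listed in mouse under any entry, and they held 34.4% of rat antisense reads (34.2 to 34.6). Of mouse antisense sequences, 1611, or 2.10%, were also listed in rat, with 16.4% of mouse antisense reads (16.3 to 16.6). As antisense mRNA reads in both libraries there were 557 sequences, 1.0035% of the rat and 0.726% of the mouse antisense sequences. Rat antisense reads that mouse listed under rRNA held 24.1% of rat antisense reads. Mouse antisense reads that rat listed under records of unknown type held 10.4% of mouse antisense reads.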

How the data were processed

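Per the file headers, the deposited tables hold whole read counts per distinct sequence, with 1 matched entry, its strand and up to 2 mismatches. Bowtie 0.12.7 and, with no role given, builds mm9 and rn5 are listed, per the submitters' processing notes. Adapter removal is not given in the sources used here. Each of the 71632 rat and 100421 mouse mismatches printed for antisense sequences fitted a reverse-complemented read, and turning the sequences removed 84 and 78 duplicates.

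Members, gene lists and rules were chosen with earlier results of these data known. Reads were classed in order as rRNA (a share of at least 0.3 of 18-nt words found in rRNA reads of at least 10 counts), mitochondrial RNA (edit distance up to 0.15 of the length to 37 mouse transcripts, edlib 1.3.9.post1), tRNA (14-nt words), repeat (words in at least 10 genes), other small RNA, then by whole match to GENCODE vM21 on GRCm38. The search misses many reads with mismatches, was tested on simulated reads, and used no rat genome or repeat annotation. Named were the 10 records and 5 sequences with most antisense reads, 3 sequences per hidden class, and the 10 mouse genes. Shares have exact Clopper-Pearson and ratios exact conditional binomial 95% intervals (scipy 1.17.1), with a pseudocount of 0.5 read for reads per 1000000. Reads are PCR products without molecular identifiers. Depth was 14652889 rat and 11760708 mouse reads.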

Additional observations from a re-analysis of the deposited data

How the results depend on the processing

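No paired analysis was possible because each species has 1 library and no test was made. The log2 ratio of rat over mouse is given, in the order antisense share, 26 to 31 nt, 21 to 23 nt, first U, rRNA, tRNA, the 10 leading records and the overlap of 10 nt, leaving out those that stayed within the main interval. The mouse share on the antisense strand alone stands last, in percent. Of the 50 alternative values, 8 stayed within the main 95% interval and 7 changed sign. Of these 7, 4 belonged to the antisense share and to reads per 1000000, whose main intervals include 0.

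With each distinct sequence counted once, the antisense share was 0.38, 26 to 31 nt 0.24, 21 to 23 nt -0.19, first U -0.21, rRNA 1.45, tRNA -3.12, the leading records 1.37, the overlap -1.12 and the mouse share 14.7%. Without mismatched sequences, the antisense share was 0.52, 21 to 23 nt -0.29, first U -1.64, rRNA 3.94 and tRNA -6.85 (-12.2 to -4.32, with rat near the floor). The leading records were then 0.71, the overlap -2.72 and the mouse share 29.3%. Without the most abundant antisense sequence of each library, the antisense share was -0.017, 26 to 31 nt 0.40, first U -0.60, rRNA 2.95, the leading records 1.08 and the mouse share 12.1%. With sequences of at least 10 reads only, the antisense share was -0.14, first U -1.01, rRNA 3.30, tRNA -0.77, the leading records 0.17, the mouse share 5.73% and the ratio of reads per 1000000 was 1.04. No antisense read then had an overlap of 10 nt in either library, so no ratio was formed.

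Without reads that hold rRNA or tRNA sequence, the antisense share was 0.52, 21 to 23 nt -0.54 and reads per 1000000 -0.95, while 26 to 31 nt turned to -0.19 and first U to 0.18. With mitochondrial reads also left out, an alternative chosen after seeing the data, the antisense share was 0.66, 26 to 31 nt -0.53, 21 to 23 nt -0.085 and first U -0.41. The lower rat share of first U was thus kept there, while the higher rat share of 26 to 31 nt was lost under both. At a word share of 0.6, rRNA was 3.46 and tRNA -2.65. Without the most abundant sequence of each library in the total, reads per 1000000 were -0.20. Intervals cover counting error alone, and the word search undercounts reads with mismatches, so hidden shares are lower limits for mismatched reads. A search of mouse transcripts leaves intergenic and intronic matches, and most rat genes, among the unmatched reads.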

Other observations

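Of all annotated mouse genes, 4202 of 55450, or 7.58%, had antisense reads. The 22 genes of the caput epithelium list, among them Gpx5 and Adam7, had 6 antisense reads on 2 genes, or 9.09% of the list, and 54776 sense reads, on all 22 genes. The 20 spermatid and sperm genes had 19 antisense reads on 5 genes, or 25% of the list, and 653 sense reads, on 19 genes with Fabp9 at 0. Odf2, which codes for a protein of the sperm tail's outer dense fibres, had 10 of the antisense reads. The library is labelled as purified sperm, and the part of epithelial RNA in the antisense reads was not tested. Antisense reads were 0.0110% of those of the caput list, 2.83% of those of the sperm list and 1.77% over all annotated genes. The 7 leukocyte genes had 2 antisense reads, on 1 gene, and 482 sense reads, and the 4 muscle genes had 3 antisense reads, on 2 genes, and 702 sense reads.

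Of the 16 piRNA pathway genes, 4, or 25%, had antisense reads, 15 in all and 11 of them on Piwil4, beside 188 sense reads on 10 genes. Piwil4, which codes for a PIWI protein of fetal germ cells, had 10 sense reads, and Mov10l1, a helicase of piRNA biogenesis, had 2 antisense and 0 sense reads. Reads placed on a single gene numbered 23411 antisense and 1302967 sense in all.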
